A study of Mus musculus with 8 samples.

Results

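The genes described here are the collagen chains of the mouse heart, taken as every gene whose symbol is Col, a type number, the letter a, and a chain number and that had at least 1 count. There were 43 of them among 16994 genes in the table, and 35 averaged at least 1 CPM, a count scaled to library size, and entered the tests with 12999 genes in all. By the known types of their products, 11 were fibrillar, 6 basement membrane, 5 beaded filament, 3 network, and 9 fibril-associated (FACIT) chains, and the rest were 2 multiplexins, 4 transmembrane collagens, and 3 others. RNA was sequenced from left ventricular heart tissue of male WT and TKO mice as 1 library for each of 4 regions and 2 genotypes, 8 libraries in all. The TKO mice lack Tigar, a regulator of glycolysis, in the whole body, so the knockout is not limited to cardiomyocytes. For the infarct zone, the border zone next to it, and the remote zone farther away, mice of both genotypes had a myocardial infarction (MI) by permanent ligation of the left anterior descending coronary artery at 16 weeks of age, and heart function was followed for 4 weeks. The labels of the left ventricle libraries name no zone, and whether those hearts were operated on is not given in the sources used here. For the infarct zone the RNA of 3 mice per genotype was pooled, the pooling of the other regions is not given, and it is unknown whether the regions of a genotype were cut from shared hearts.

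Collagens are built from 3 chains wound around each other, and each winding stretch is a repeat of glycine followed by any 2 residues (Gly-X-Y). Fibrillar collagens, chiefly types I and III in the heart, form the cables of a scar, FACIT chains sit on their surface, and type IV collagen forms the sheet of the basement membrane around cardiomyocytes and capillaries. After MI, fibroblasts replace dead muscle with a scar rich in fibrillar collagen.

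The classes differ in how long the repeat runs without a break. In the longest open reading frame of its GENCODE transcripts, Col1a1 held 338 Gly-X-Y triplets in 1 uninterrupted run, and the longest run of Col3a1 was 344 and that of Col1a2 339. In Col4a1 the longest run was 40 triplets and in Col4a2 66, with 23 and 24 separate runs of at least 3 triplets. The pair of coding stretches printed next shows this, with the codon of each repeat's glycine in capitals, since these 2 classes gave most of the collagen counts in each library. The Col1a1 stretch lies in exons 21 to 23 of 51 (GRCm38, chr11:94942876-94943396, + strand, introns left out) and the Col4a1 stretch in exons 17 to 19 of 52 (GRCm38, chr8:11236436-11239006, − strand, introns left out).
Col1a1: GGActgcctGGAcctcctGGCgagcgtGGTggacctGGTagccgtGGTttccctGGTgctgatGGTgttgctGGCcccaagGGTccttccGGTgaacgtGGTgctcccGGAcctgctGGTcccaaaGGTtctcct
Col4a1: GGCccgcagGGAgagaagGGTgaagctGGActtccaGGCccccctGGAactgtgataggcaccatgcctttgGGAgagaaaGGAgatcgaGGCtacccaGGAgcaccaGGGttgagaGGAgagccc
The Col1a1 stretch holds 15 glycine codons that open a repeat, in unbroken steps of 3 codons. Glycine codons at other positions are in small letters and are not counted. The Col4a1 stretch holds 12 that open a repeat, with a break of 6 codons between 2 runs.

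Total counts per library lay between 27429240 and 33799249. The knockout was visible in each region, since Tigar (ENSMUSG00000038028) had 1066 to 2215 counts in the 4 WT libraries and 51 to 87 in the 4 TKO libraries. Levels are given as CPM after scaling each library by edgeR's TMM factor, which was 1.54 in the WT infarct zone, 1.26 in the TKO infarct zone, and 0.866 to 0.956 in the other 6 libraries. The WT infarct and WT border zone libraries stood apart from the rest in transcripts of fast skeletal muscle. Myh1, a fast myosin, had 1263 counts in the WT infarct zone and 157 in the WT border zone, against 3 to 10 in the other 6 libraries. Of the 10 skeletal muscle markers, Ckm and Acta1 are also heart genes, and Myf6 and Myog stayed at 10 counts or fewer in each library. The other 6 (Myh1, Myh2, Myh4, Tnnt3, Actn3, and Mybpc1) had 279 to 1486 counts in the WT infarct zone, 32 to 205 in the WT border zone, and 1 to 50 elsewhere. The part of this signal in the collagen results was not tested, and counts of called genes are therefore also given with both libraries left out, an alternative chosen after seeing the data.

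Collagen transcripts made up a small share of each library outside the infarct zone. They took 0.113% of all counts in the WT left ventricle and 0.136% in the TKO left ventricle. The remote zone had a share of 0.163% in WT and 0.117% in TKO. Border zone shares were 0.321% (WT) and 0.173% (TKO), and infarct zone shares 1.34% (WT) and 0.903% (TKO). Against its own left ventricle, the WT share was 11.9-fold higher in the infarct and 2.84-fold higher in the border zone, and the TKO share 6.65-fold and 1.28-fold higher. These folds depend on the denominator, and with TMM-scaled totals they were 6.68 and 2.58 in WT and 4.58 and 1.24 in TKO. TKO over WT, the share ratio was 1.20 for the left ventricle, 0.721 for the remote, 0.541 for the border, and 0.675 for the infarct zone (0.828 with TMM-scaled totals). Exact (Clopper-Pearson) 95% intervals of these shares were narrow, for example 0.319 to 0.323% in the WT border zone. They cover counting error only, since without molecular identifiers a read is not an independent molecule, and with 1 library per group no ratio between single libraries has a replicate check. In tissue RNA, fewer cells of a type and less RNA per cell cannot be told apart.

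The make-up of the collagen transcripts also shifted. Type IV (basement membrane) chains gave 43.4% of the collagen counts in the WT and 47.5% in the TKO left ventricle, and fibrillar chains gave 31.2% and 29.4%. In the infarct zone the order was turned around, with 67.8% fibrillar in WT and 66.1% in TKO, and 11.5% and 12.9% from type IV chains. The border zone lay between, with 54.9% fibrillar counts in WT and 47.3% in TKO. Network chains, which are the short collagens VIII and X, gave 1.71% of the collagen counts in the WT left ventricle and 4.67% in the WT infarct zone, and FACIT chains 1.97% and 4.86%. Per kilobase of exon, Col4a1 had the highest level of all collagen genes in 5 libraries, at 38.1 CPM per kilobase in the WT left ventricle and 37.5 in the TKO border zone. In the TKO border zone Col3a1 followed closely at 35.5. This ranking depends on the length used. The longest transcript as length raises the level of Col3a1, and the ranking was not made with it. In the WT border zone and both infarct zone libraries Col3a1 was highest, at 83.9, 253, and 207 CPM per kilobase.

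**Figure D1:**
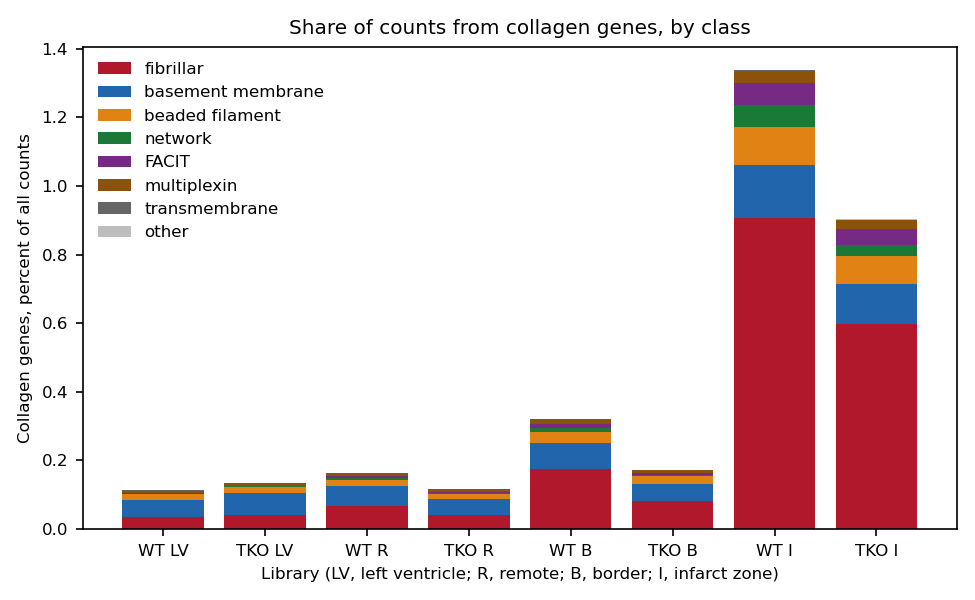
Share of all counts that came from collagen genes (vertical axis, percent) in each of the 8 libraries (horizontal axis), stacked by class (colours), with 1 library per bar and no error bar. The bar is 1.34% in the WT and 0.903% in the TKO infarct zone and 0.321% or less in the other 6 libraries.

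Zones were compared with the left ventricle by edgeR's quasi-likelihood test over all 8 libraries, with genotype as a covariate, so that the WT and TKO libraries of a region served as its 2 samples. These p-values measure the spread between libraries and not between mice. In the infarct zone 28 of the 35 collagen genes tested were higher than in the left ventricle and 0 were lower at an adjusted p under 0.05. Among all genes tested, 28.2% were higher and 28.6% lower in this comparison. The median log2 difference of the collagen genes was 2.19, against 0.02 over all genes. All 28 collagen calls were upward. The filter on mean CPM spans all 8 libraries, so a gene counted mainly in the infarct zone can enter the 35 through it, as Col2a1 and Col24a1 did. With total counts in place of TMM the median of all genes moved to 0.71 and that of the collagen genes to 2.88, a distance much like that under TMM. With total counts 33 of the 35 were called higher, against 60.5% of all genes (8.34% lower). Without the WT infarct and WT border zone libraries 24 of the 35 were called, again all upward, against 11.0% of all genes higher.

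Of the fibrillar chains 9 of 11 were called higher in the infarct zone. Among the 9 are Col2a1 and Col24a1, which met the filter only through their infarct zone counts, so their calls add no support. Col3a1 (ENSMUSG00000026043, chr1:45311538-45349706), a chain of the fine fibrils of young scar and vessel walls, had 129 CPM in the WT and 173 in the TKO left ventricle, and 2484 and 2032 CPM in the WT and TKO infarct zone. In the border zone it had 823 CPM in WT and 349 in TKO, and in the remote zone 312 and 158. Both infarct zone libraries were above the other 6 without overlap, and the log2 difference to the left ventricle was 3.84 ± 0.43 (SE, adjusted p = 0.00117). Col1a1 (ENSMUSG00000001506, chr11:94936224-94953042), the main chain of type I collagen, had 84.1 and 77.8 CPM in the WT and TKO left ventricle, 114 and 76.9 in the remote zone, 308 and 172 in the border zone, and 1025 and 821 in the infarct zone, a log2 difference for the infarct zone of 3.50 ± 0.22 (SE, adjusted p = 0.000286). Its partner Col1a2 (ENSMUSG00000029661, chr6:4504814-4541544) had 113 and 111 CPM in the left ventricle, 202 and 124 in the remote zone, 475 and 259 in the border zone, and 1649 and 1320 in the infarct zone (log2 3.71 ± 0.25). The minor chains that start and limit fibril growth, Col5a1, Col5a2, and Col11a1, had log2 differences of 2.60, 3.77, and 4.62.

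The 2 fibrillar chains that were not called are Col5a3, with a log2 difference of 0.43 ± 0.33, and Col11a2, with 0.23 ± 0.52. Col2a1 (ENSMUSG00000022483, chr15:97975602-98004695), the main collagen of cartilage, was near the floor of detection outside the infarct zone, with 2 to 19 counts in the other 6 libraries. It had 454 counts in the WT and 121 in the TKO infarct zone, and the fitted log2 difference of 5.28 ± 0.82 depends on the prior count. In the WT hearts alone the infarct over left ventricle ratio was 147, with a wide counting interval (40.5 to 1218). Col24a1, a fibrillar chain known from developing bone and eye, had 180 and 132 counts in the WT and TKO infarct zone and 1 to 24 elsewhere. Of the 10 cartilage and bone markers, 5 are in the table and 3 were tested, of which 2, Acan and Sox9, were called higher. Acan went from 3 and 0 counts in the WT and TKO left ventricle to 310 and 157 in the infarct zone. Sox9 went from 47 and 56 to 985 and 448. The other tested marker had a log2 difference of 0.58 and was not called. The summed level of the 5, which includes Acan and Sox9, went from 4.82 and 3.36 CPM in the left ventricle to 35.01 and 21.5 CPM in the infarct zone. Their part in the result was not tested.

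Of the basement membrane chains 4 of 6 were called higher, and their median log2 difference was 0.91. Col4a1 (ENSMUSG00000031502) and Col4a2 (ENSMUSG00000031503), which make up the common type IV collagen of vessels and muscle fibres, were not called. Col4a1 had 285 CPM in the WT and 382 in the TKO left ventricle, and 487 and 455 CPM in the infarct zone. In the remote zone it had 318 CPM in WT and 254 in TKO, and in the border zone 406 and 280. The TKO left ventricle was thus above both remote zone libraries and the TKO border zone, and the log2 difference for the infarct zone was 0.49 ± 0.24 (adjusted p = 0.120). Col4a2 had 235 and 316 CPM in the WT and TKO left ventricle, 251 and 209 in the remote zone, 329 and 232 in the border zone, and 417 and 383 in the infarct zone (log2 0.53 ± 0.23, adjusted p = 0.0888). The other 4 type IV chains were called higher. They are Col4a5 (log2 0.90 ± 0.09), Col4a4 (0.92 ± 0.18), Col4a3 (1.52 ± 0.18), and Col4a6 (2.19 ± 0.31), of which Col4a4 and Col4a6 were no longer called without the WT infarct and WT border zone libraries (adjusted p = 0.107 and 0.0507). Without the WT infarct zone library alone Col4a4 had an adjusted p of 0.0508.

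Of the network and FACIT chains 2 of 2 and 5 of 6 tested genes were called higher. The FACIT count includes Col9a2, whose place above the filter may rest on its infarct zone counts. Col8a2 (ENSMUSG00000056174, chr4:126286793-126314330), a chain of the short-chain collagen VIII found in remodelling vessels and scars, had 1.06 and 1.47 CPM in the WT and TKO left ventricle, 4.54 and 2.32 in the remote zone, 18.9 and 6.17 in the border zone, and 88.4 and 60.5 in the infarct zone. Its log2 difference for the infarct zone, 5.87 ± 0.43 (adjusted p = 0.000362), was the largest of the 35. Col8a1, the other chain of type VIII, had 21.2 and 25.9 CPM in the left ventricle, 63.1 and 30.3 in the remote zone, 120.2 and 44.5 in the border zone, and 317 and 204 in the infarct zone (log2 3.36 ± 0.40). Col12a1 (ENSMUSG00000032332, chr9:79598991-79718831), a FACIT chain that links fibrils in tissue under tension, had 3.36 and 1.58 CPM in the left ventricle, 10.4 and 5.61 in the remote zone, 34.2 and 11.3 in the border zone, and 98.7 and 88.5 in the infarct zone (log2 5.36 ± 0.38, adjusted p = 0.000342). Col14a1, a FACIT chain on the surface of type I fibrils, had 10.03 and 9.58 CPM in the left ventricle, 25.0 and 16.8 in the remote zone, 58.8 and 25.9 in the border zone, and 211 and 179.8 in the infarct zone (log2 4.31 ± 0.29). Col16a1, also of this class, gave 3.39 ± 0.29, and Col9a2 gave 4.18 ± 0.57 from 4 and 6 counts in the left ventricle and 147 and 123 in the infarct zone. For each of these genes both infarct zone libraries were above the other 6.

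Beaded filament chains of type VI collagen, which anchor cells to the matrix, had smaller differences, 3 of 4 tested being called. Col6a1 had 76.7 and 75.4 CPM in the WT and TKO left ventricle, 86.7 and 73.2 in the remote zone, 138 and 99.1 in the border zone, and 333 and 303 in the infarct zone (log2 2.06 ± 0.15). Col6a2 gave 1.82 ± 0.17 and Col6a3 1.27 ± 0.13, whereas Col6a6 did not pass the test at -0.05 ± 0.35. The multiplexins Col15a1 and Col18a1, which carry the antiangiogenic end fragments restin and endostatin, gave 1.08 ± 0.19 and 2.05 ± 0.15. Of the remaining tested genes, the transmembrane Col23a1, the anchoring fibril chain Col7a1, and Col28a1 were called higher (1.65, 1.52, and 2.38), and Col13a1 (0.39) and the FACIT chain Col20a1 (0.48) were not. Col7a1 was not called without the TKO infarct zone library (adjusted p = 0.112) or without the TKO left ventricle library (adjusted p = 0.0646), and Col23a1 not without the WT infarct zone library (adjusted p = 0.0601).

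**Figure D2:**
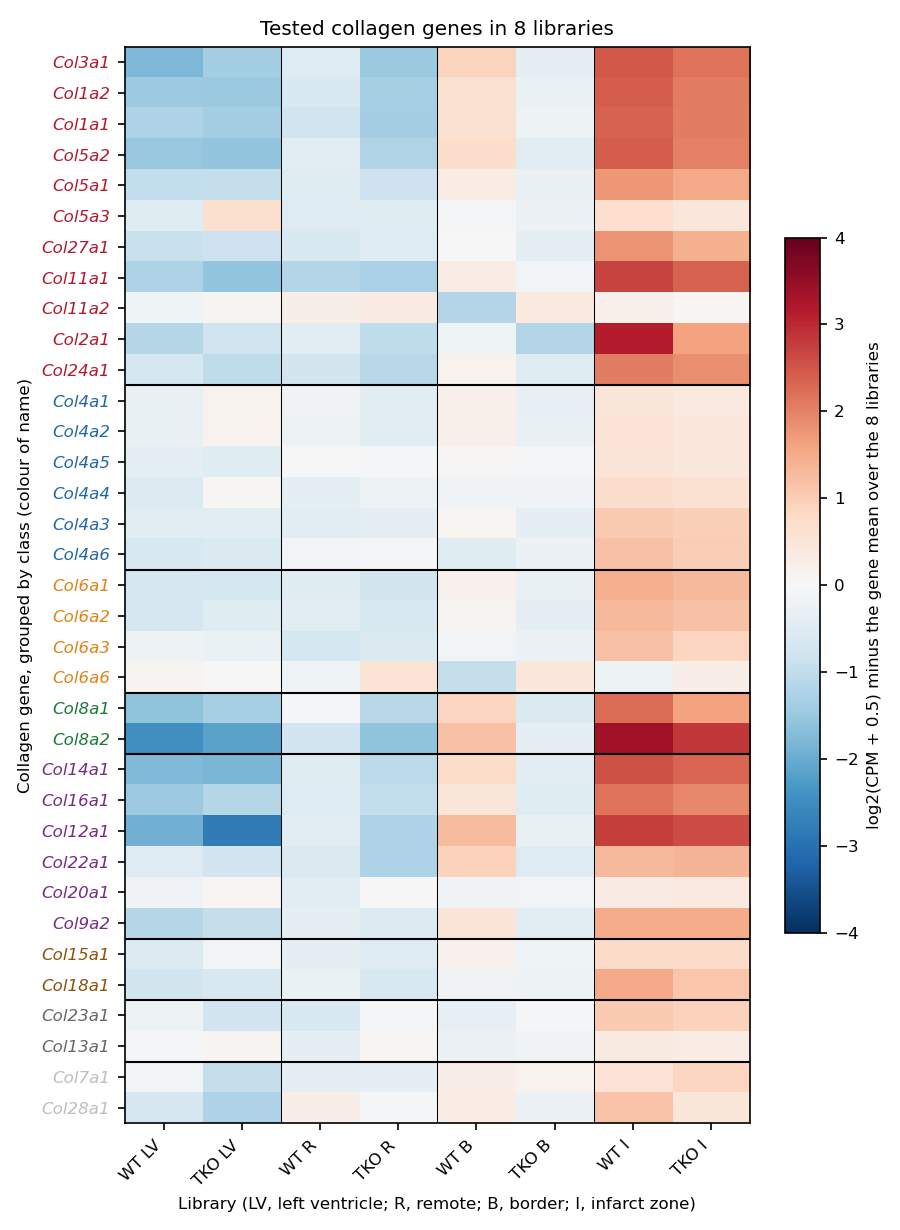
Levels of the 35 tested collagen genes (rows, grouped by class) in the 8 libraries (columns), as log2(CPM + 0.5) minus the gene's mean over the libraries, red for higher and blue for lower. The 2 infarct zone columns are the reddest for most genes, whereas Col4a1 and Col4a2 vary little, from 254 to 487 CPM and from 209 to 417 CPM.

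The 8 collagen genes below the filter had few counts. Col6a4 had 12 counts in the WT infarct zone and 1 or 0 elsewhere, and Col10a1, a chain of growth plate cartilage, had 10 and 4 in the WT and TKO infarct zone and 0 to 2 elsewhere. Col9a3 had 59 and 37 counts in the infarct zone and 9 to 24 in the other libraries. The counts of Col9a1, Col19a1, Col25a1, Col17a1, and Col26a1 lay between 0 and 38 in each library.

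The infarct zone was also compared with the other injured regions. Relative to the border zone 26 of the 35 collagen genes were higher and 0 lower, against 21.6% and 21.9% of all genes. Without the TKO border zone library 12 were called, against 2.71% of all genes higher, and without both the WT infarct and WT border zone libraries 0 were, with a median log2 difference of 1.52 against 1.43 in all 8 libraries. Relative to the remote zone 31 were higher and 0 lower, against 24.6% and 24.8% of all genes, with 20 called without the WT remote zone library (10.1% of all genes higher) and 19 without the WT infarct and WT border zone libraries (4.92%). Col4a1 and Col4a2 were among the 31, with log2 differences of 0.73 (adjusted p = 0.0422) and 0.80 (adjusted p = 0.0262).

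In the border zone 6 of the 35 collagen genes were higher than in the left ventricle and 0 lower, against 0.669% and 0.0462% of all genes. These were the fibrillar Col1a1 (log2 1.51 ± 0.20), Col1a2 (1.65 ± 0.23), and Col11a1 (2.02 ± 0.20), the network chain Col8a2 (3.18 ± 0.43), and the FACIT chains Col12a1 (3.12 ± 0.37) and Col14a1 (2.02 ± 0.27), with adjusted p between 0.0300 and 0.0475. Col3a1 gave 1.81 ± 0.41 and did not pass (adjusted p = 0.114). At an unadjusted p under 0.05, 20 were higher and 0 lower, against 11.4% and 6.54% of all genes, and the Wald test of DESeq2 called 16 higher, against 3.66%. The edgeR count changed with single libraries, with fewer residual degrees of freedom in each such fit. It was 0 without the WT border zone, the WT remote zone, or the TKO remote zone library, 1 without the WT or the TKO infarct zone library, 2 (Col11a1 higher and Col5a3 lower) without the WT left ventricle, 3 without the TKO border zone, and 11 without the TKO left ventricle, while the share of all genes called higher lay between 0.00769% and 2.28%. Without a remote or infarct zone library, which have no part in this comparison, the log2 differences of the 6 genes moved by at most about 0.03, and without a border zone or left ventricle library by up to 0.73 (Col8a2, between 2.45 and 3.91). Without the WT infarct and WT border zone libraries the count was 0.

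Taken within a genotype, the border zone over left ventricle ratio was larger in WT than in TKO for 5 of these 6 genes, with counting intervals that overlapped for Col12a1 (10.2 against 7.11). Col8a2 was 17.9-fold higher in WT (95% interval from counting error, 12.3 to 26.9) and 4.20-fold in TKO (2.95 to 6.13). Col1a1 was 3.66-fold higher in WT and 2.21-fold in TKO, and Col3a1 6.40-fold and 2.02-fold. For Col11a1 the ratios were 3.98 (2.56 to 6.42) in WT and 4.20 (2.43 to 7.72) in TKO, a difference not detectable at this depth. No type IV chain was called in the border zone, and the direction of Col4a1 differed between the genotypes, at 1.43-fold in WT and 0.734-fold in TKO.

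Remote from the infarct, 0 of the 35 collagen genes were called against the left ventricle with edgeR, as were 0% of all genes in the higher and 0% in the lower direction. At an unadjusted p under 0.05, 7 were higher and 1 lower, against 6.91% and 3.69% of all genes, and DESeq2's Wald test called 3 higher (Col12a1, Col14a1, and Col28a1), against 0.977%. The log2 difference of Col12a1 was 1.71 ± 0.37 and that of Col14a1 was 1.05 ± 0.27. Without the WT left ventricle library Col5a3 was called lower. In WT hearts Col8a1 was 2.98-fold higher in the remote zone than in the left ventricle (2.72 to 3.28) and Col3a1 2.43-fold (2.33 to 2.52), whereas in TKO hearts these values were 1.17 (1.06 to 1.29) and 0.914 (0.877 to 0.952).

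**Figure D3:**
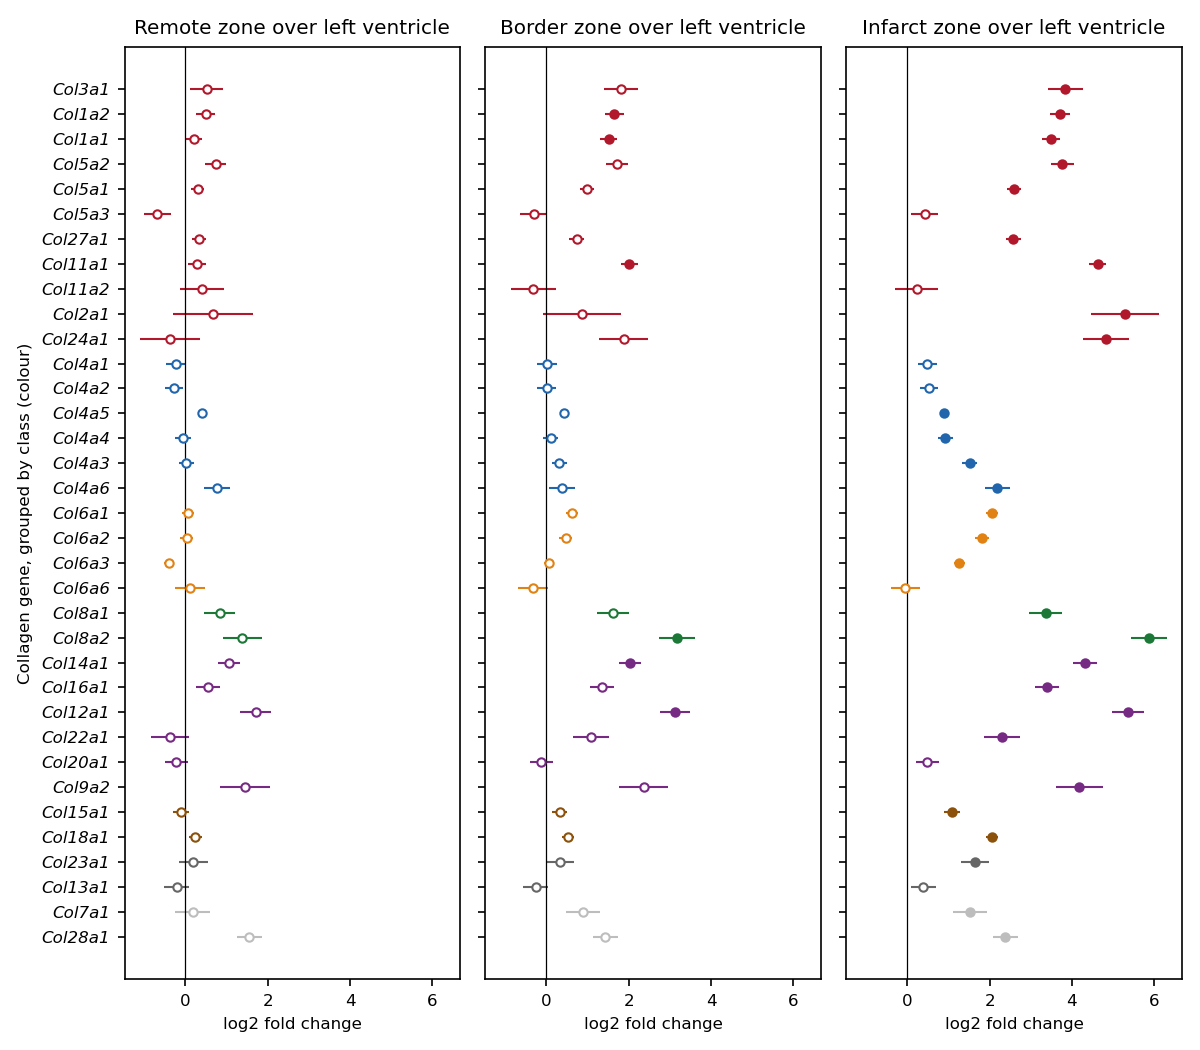
Log2 fold change (horizontal axes) of the 35 tested collagen genes (vertical axis, colours by class) in the remote, border, and infarct zones over the left ventricle, from edgeR over all 8 libraries, with bars for the SE and filled points for an adjusted p under 0.05. Filled points number 0, 6, and 28 from left to right.

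Levels stood in the rising order left ventricle, remote, border, and infarct zone for 23 of the 35 collagen genes in WT, against 18.9% of all genes tested. In TKO this order held for 16 of the 35, against 14.6%. With 1 library per group the order of neighbours was not tested, and in TKO hearts Col1a1 had 77.8 CPM in the left ventricle and 76.9 in the remote zone.

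Ratios between collagen chains varied little between libraries for some pairs and more for others. Ratios are given on counts per kilobase of exon. Col4a1 over Col4a2 lay between 1.04 and 1.13 in all 8 libraries, and Col6a1 over Col6a2 between 1.76 and 2.24. Col1a2 over Col1a1 lay between 0.707 and 0.938. With the longest transcript as length it lay between 1.48 and 1.97, so the order of these 2 chains depends on the length used. With that length Col6a1 over Col6a2 lay between 1.11 and 1.41 and Col3a1 over Col1a1 between 1.63 and 2.92. Col8a1 over Col8a2 then lay between 2.86 and 17.0 and Col5a2 over Col5a1 between 1.11 and 2.74. The length changes each ratio by the same factor in all 8 libraries, and the values below are per kilobase of exon. The ratio of Col8a1 to Col8a2 was 11.5 in the WT and 10.1 in the TKO left ventricle. It was 7.97 and 7.47 in the remote, 3.64 and 4.13 in the border, and 2.05 and 1.93 in the infarct zone, and the counting intervals of WT and TKO overlapped in each region. The counting intervals of the left ventricle and infarct zone ratios did not overlap in either genotype. Col3a1 over Col1a1 was lowest in the WT left ventricle (1.02) and highest in the WT remote zone (1.83). Col5a2 over Col5a1 was 0.821 and 0.772 in the WT and TKO left ventricle and 1.91 and 1.70 in the infarct zone.

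**Figure D4:**
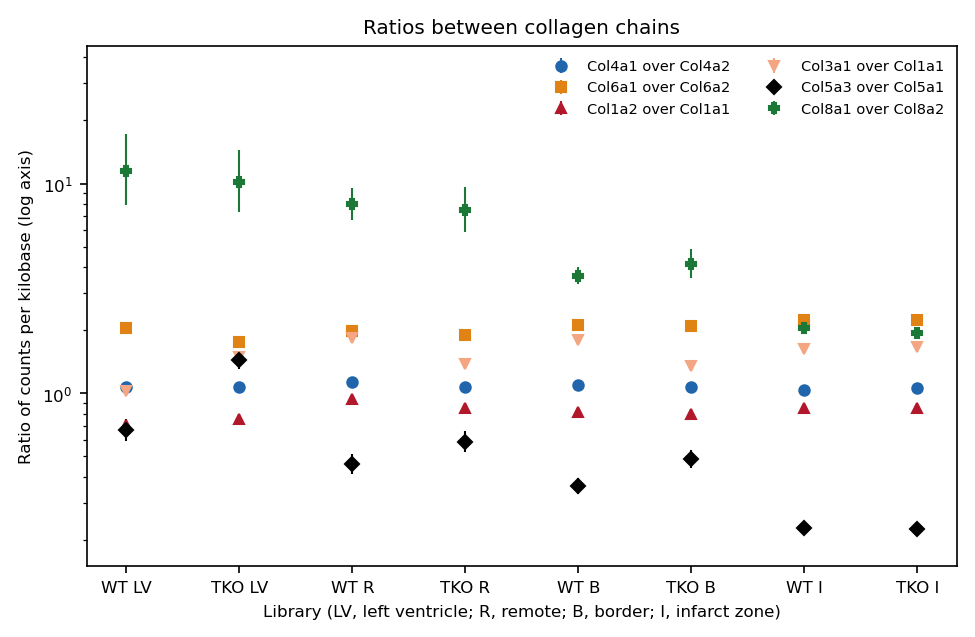
Ratio of 2 collagen chains on counts per kilobase of exon (vertical log axis) in each of the 8 libraries (horizontal axis), with bars for the 95% interval from counting error. Col4a1 over Col4a2 stays between 1.04 and 1.13, whereas Col8a1 over Col8a2 goes from 11.5 in the WT left ventricle to 1.93 in the TKO infarct zone.

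Several collagen genes, among them partner chains, are also neighbours in the genome. In the GENCODE annotation of GRCm38, Col4a1 (chr8:11198423-11312826, − strand) and Col4a2 (chr8:11312805-11449287, + strand) point away from each other and overlap by 22 bases at their starts. Col4a3 and Col4a4 on chromosome 1 lie head to head with a gap of 71 bases, and Col4a5 and Col4a6 on chromosome X with one of 1308 bases. Col3a1 and Col5a2 lie tail to tail on chromosome 1 with a gap of 24614 bases. On counts per kilobase, Col4a3 over Col4a4 ranged from 0.485 in the TKO left ventricle to 0.920 in the WT infarct zone. Whether the counting used strand is not given in the sources used here. How reads that reach into the 22 shared bases of Col4a1 and Col4a2 were assigned was not examined.

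Promoter windows from 250 bases before to 50 after the start, from RefSeq on GRCm38.p6, matched 34 of the 43 genes. The shared start of the most even pair is printed with the 22 overlapping bases in capitals. The windows of Col1a2 and Col3a1 are shown because both genes were called in the infarct zone and differ in their matches to 2 common promoter motifs, whose letters on either strand are in capitals.
Col4a1 and Col4a2, chr8:11312777-11312854, + strand: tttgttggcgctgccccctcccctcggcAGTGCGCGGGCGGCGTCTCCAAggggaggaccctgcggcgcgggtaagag
Col1a2, chr6:4505368-4505667, + strand: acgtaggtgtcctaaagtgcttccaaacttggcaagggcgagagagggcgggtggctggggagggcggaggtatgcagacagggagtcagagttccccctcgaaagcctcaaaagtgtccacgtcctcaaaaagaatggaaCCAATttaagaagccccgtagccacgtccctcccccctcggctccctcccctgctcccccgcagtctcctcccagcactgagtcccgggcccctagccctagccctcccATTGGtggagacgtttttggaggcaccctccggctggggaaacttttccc
Col3a1, chr1:45311288-45311587, + strand: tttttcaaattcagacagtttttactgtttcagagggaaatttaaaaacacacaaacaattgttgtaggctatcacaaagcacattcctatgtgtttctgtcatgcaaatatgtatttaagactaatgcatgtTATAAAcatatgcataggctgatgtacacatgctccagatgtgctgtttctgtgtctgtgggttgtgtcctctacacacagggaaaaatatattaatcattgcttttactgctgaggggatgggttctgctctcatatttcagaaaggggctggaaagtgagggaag
The capitals in Col1a2 are matches to CCAAT, and the window of Col3a1 holds none of these. The capitals in Col3a1 are a match to TATAAA, and the window of Col1a2 holds none. Over the collagen genes the CCAAT motif was found on either strand in 13 of 34 and in 37.4% of all 32851 windows. The TATAAA motif was found in 5 of 34 and in 13.6% of all windows. The motif GGGCGG was found in 21 of 34 and in 35.7% of all windows. The motif TGANTCA, with N as any base, was found in 1 (Col6a1) and in 7.81% of all windows. The 4 motifs do not contain each other. A match describes letters and not a binding site.

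The genotypes were compared over the 4 regions with region as a covariate, which asks whether TKO differs from WT across the heart. The 4 regions served as the samples of a genotype and may come from shared hearts. The p-values of this test, also those of the marker genes below, therefore measure the spread between regions and not between mice. No collagen gene was called with edgeR (0 of 35 higher and 0 lower, against 0.0769% and 0.0615% of all genes). At an unadjusted p under 0.05, 11 were lower and 1 (Col6a6) higher, against 8.79% of all genes for the lower and 7.43% for the higher direction. DESeq2's Wald test called 2 lower, Col1a1 and Col12a1, against 1.65%. The median log2 difference was -0.20, against 0.00 over all genes, and it was -0.10 without the WT infarct and WT border zone libraries. By class the median was -0.46 for fibrillar, -0.47 for FACIT, -0.78 for the 2 tested network chains, -0.11 for basement membrane, and -0.12 for beaded filament chains. The lowest adjusted p was that of Col12a1 (log2 -0.89 ± 0.24, adjusted p = 0.202), which was lower in TKO in all 4 regions, with TKO over WT ratios of 0.472 (left ventricle), 0.539 (remote), 0.329 (border), and 0.896 (infarct). Lower TKO values in all 4 regions were seen for 10 of the 35 collagen genes, Col1a1, Col1a2, Col5a2, Col11a1, Col24a1, Col12a1, Col14a1, Col28a1, Col4a5, and Col6a1, against 13.5% of all genes.

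Cell type markers moved alongside. Of all genes, 8.79% were lower and 7.43% higher in TKO at an unadjusted p under 0.05, and 0.0615% and 0.0769% were called. Each of the 10 macrophage markers had an unadjusted p under 0.05 for lower TKO values, though 0 were called, and their summed level was 326 CPM in the TKO against 379.5 in the WT left ventricle, and 1247 against 1675 CPM in the TKO and WT infarct zone. Of 10 matrifibrocyte markers, genes of the late scar fibroblast, 7 had an unadjusted p under 0.05 for lower TKO values, with 0 called. Of 10 activated fibroblast markers 5 were lower in TKO at an unadjusted p under 0.05, and 1, Lrrc15, was called higher (log2 0.75 ± 0.07, adjusted p = 0.0421). Of 10 fibroblast markers 2 were lower and 1 higher at an unadjusted p under 0.05, with 0 called. The 10 cardiomyocyte markers had positive log2 differences, with 0 called, and their summed level was 13274 CPM in the WT and 26270 in the TKO infarct zone, against 53544 and 55976 in the left ventricle. Between the infarct zone and the left ventricle 10 of 10 cardiomyocyte markers were lower, and 8 of 10 fibroblast, 8 of 10 activated fibroblast, 8 of 10 matrifibrocyte, and 10 of 10 macrophage markers were higher. For these and the marker counts that follow, 28.2% of all genes were called higher and 28.6% lower. The summed fibroblast level was 1789.8 and 1745 CPM in the WT and TKO left ventricle and 5904 and 5365 in the infarct zone. Endothelial markers, whose cells lie on type IV collagen, had 1 higher and 1 lower of 10, with summed levels of 793 to 959 CPM over the 8 libraries. Pericyte and smooth muscle markers had 5 higher and 4 lower of 10, and epicardial and mesothelial markers 7 higher of 9 tested. Schwann cell markers had 5 higher and 2 lower of 8 tested, adipocyte markers 2 lower of 5 tested, cartilage and bone markers 2 higher of 3 tested, and skeletal muscle markers 5 higher and 1 lower of 8 tested. The part of these cells in the collagen differences was not tested.

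Within single regions, TKO over WT ratios lay farthest from 1 in the border zone. There the 35 collagen genes had a median ratio of 0.705, against 0.834 for the remote zone, 0.870 for the infarct zone, and 1.04 for the left ventricle, while the median of all genes lay between 0.993 and 1.01. In the border zone 11 were at least 2-fold lower in TKO, against 3.26% of all genes, and 2 (Col11a2 and Col6a6) at least 2-fold higher, against 1.23%. In the remote zone these counts were 3 and 0, against 2.39% and 1.17%, and in the infarct zone 1 (Col2a1) and 0, against 1.43% and 2.4%. In the left ventricle 3 (Col7a1, Col12a1, and Col24a1) were lower, against 3.62%, and 2 (Col5a3 and Col2a1) higher, against 1.98%. These counts are descriptions of single libraries, and the WT border and WT infarct zone libraries both carry skeletal muscle transcripts, with more in the infarct zone.

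The 11 genes lower in the TKO border zone held chains of the fibrillar, network, and FACIT classes and none of type IV. Both network chains were among them, Col8a1 with 120 CPM in WT and 44.5 in TKO, a ratio of 0.370 (95% interval from counting error, 0.347 to 0.394), and Col8a2 with 18.9 and 6.17 CPM, a ratio of 0.326 (0.275 to 0.386). Of the FACIT chains, Col22a1, known from tissue junctions such as that of muscle and tendon, had 175 counts in WT and 52 in TKO, a ratio of 0.309 (0.222 to 0.423), and Col14a1, Col16a1, Col9a2, and Col12a1 had ratios of 0.440, 0.496, 0.354, and 0.329. Col3a1 had a ratio of 0.423 (0.414 to 0.433) and Col5a2 one of 0.456, and Col2a1 and Col24a1 had 2 and 10 counts in TKO. Col1a1 and Col1a2 were at 0.559 and 0.545, just short of 2-fold. Type IV chains had ratios from 0.690 (Col4a1) to 1.29 (Col4a6, 0.769 to 2.18). Of the 35 ratios in the border zone 28 lay below 1 and 7 above. Past 2-fold upward were Col11a2, with 24 counts in the WT and 98 in the TKO border zone, and Col6a6, with 96 and 259. Outside the WT border zone library, Col11a2 had 56 to 118 counts and Col6a6 164 to 293. For both genes the WT border zone library thus had the lowest count. Col6a6 also had the highest ratio of the 35 in the remote (1.71) and infarct zone (1.43), after a prior count of 2. It was lower in TKO in 1 region.

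**Figure D5:**
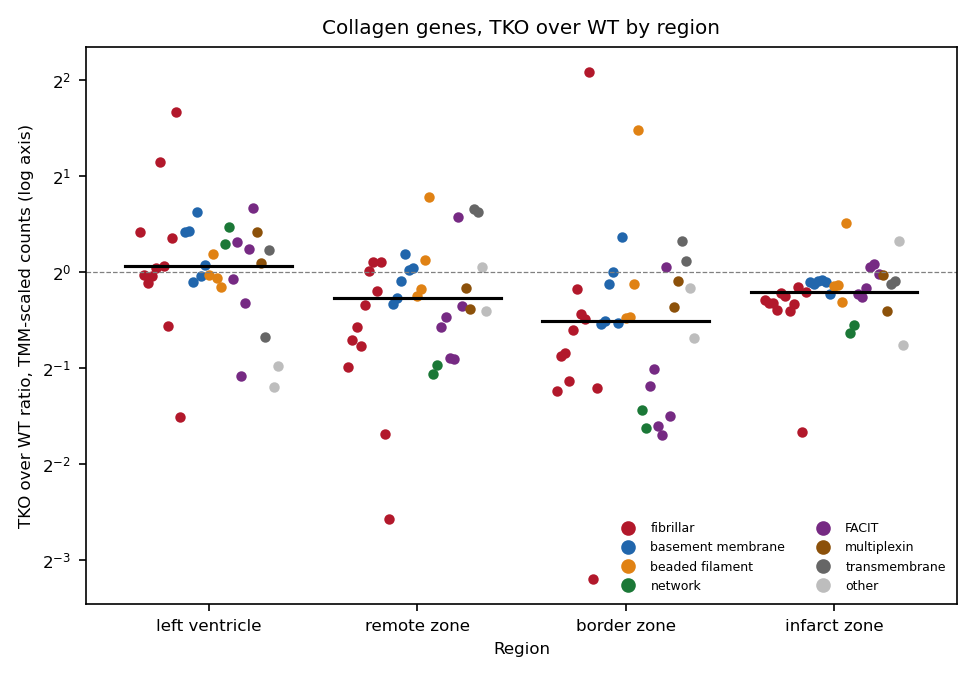
TKO over WT ratio of TMM-scaled counts (vertical log axis, with 1 library on each side) of the 35 tested collagen genes in each region (horizontal axis), with colours for class and a black line for the median. The median is 1.04 in the left ventricle, 0.834 in the remote, 0.705 in the border, and 0.870 in the infarct zone, and the lowest and highest points of the border zone are Col2a1 (2 counts in TKO) and Col11a2.

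Whether 1 region's TKO over WT difference departed from the other regions was tested with an added term in the same model. For the border zone 0 collagen genes were called (0% of all genes), with a median log2 departure of -0.43, for the infarct zone 0 (0.00769%), and for the remote zone 0 (0%). DESeq2's Wald test also called 0 in each of these. Without either the WT or the TKO left ventricle library the infarct zone departure was called for 6 collagen genes, all upward (Col14a1, Col5a2, Col3a1, Col12a1, Col8a2, and Col8a1), against 6.85% and 7.03% of all genes in either direction. For the left ventricle 1 collagen gene was called, Col5a3 (ENSMUSG00000004098, chr9:20770050-20815067), a fibrillar minor chain, against 0.646% of all genes. Col5a3 had 34.2 CPM in the TKO and 15.4 in the WT left ventricle, and TKO over WT was 2.23 (95% interval from counting error, 1.98 to 2.51) there against 1.01 in the remote, 0.884 in the border, and 0.846 in the infarct zone. Its log2 departure was 1.30 ± 0.15 (adjusted p = 0.0455), and it was not called without the WT border, TKO border, WT remote, or TKO remote zone library (adjusted p from 0.0523 to 0.216). Without the WT infarct zone library the left ventricle departure was called for 15 collagen genes (14 upward) and without the TKO infarct zone library for 16 (15 upward), against 10.8% and 10.7% of all genes in either direction. Col4a1 and Col4a2, with TKO over WT ratios of 1.34 for both in the left ventricle and of 0.690 and 0.705 in the border zone, had departures of 0.74 ± 0.25 and 0.72 ± 0.24 that did not pass (adjusted p = 0.246 and 0.227).

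Collagen also needs enzymes that hydroxylate, trim, and crosslink it and receptors that bind it. Of 43 such genes 42 were tested, and in the infarct zone 28 were higher than in the left ventricle and 2 (P4ha2 and Mia2) lower, against 28.2% and 28.6% of all genes. The largest changes among them were those of P4ha3, a prolyl hydroxylase subunit (log2 5.09), Lox, which starts crosslinking (4.29), Loxl3, of the same family (3.65), and Adamts2, which trims the amino end of procollagen (3.38). Lox had 288 and 95 counts in the WT and TKO left ventricle and 6748 and 3455 in the infarct zone. Serpinh1 (HSP47), the collagen chaperone, did not pass (log2 0.42, adjusted p = 0.0569). In the border zone 5 were higher, against 0.669% of all genes, and in the remote zone 0 were called. Between genotypes 0 were called, with 13 lower and 1 higher at an unadjusted p under 0.05, against 8.79% and 7.43% of all genes.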

How the data were processed

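For each region of each genotype, RNA of left ventricular tissue gave 1 sequenced library. The authors trimmed reads with Trim Galore 0.6.5, quantified transcripts with kallisto 0.46 against the mm10 (GRCm38) transcriptome, and summed them to genes with tximport, and the deposited values are estimated counts as whole numbers, without normalization. Total counts per library lay between 27429240 and 33799249. After a filter on mean CPM (minimum 1), 12999 genes were fitted with edgeR 4.0.16 in R 4.3.3 (quasi-likelihood test, genotype and region as terms, TMM, Benjamini-Hochberg adjustment, threshold 0.05), tested on simulated data. Alternatives were total counts, DESeq2 size factors, mitochondrial DNA-encoded genes left out of scaling, no filter, the Wald test of DESeq2 1.42.0, and each library left out in turn. Ratios of 2 libraries have exact intervals, and 2-fold counts use a prior count of 2. Each SE of a log2 difference was derived as its absolute value over the square root of edgeR's F statistic. It is not a fitted standard error and is least apt for genes with few counts. A library with 3 counts or fewer was taken as being at the floor. Lengths are the union of exons in GENCODE. Genes named are the 3 most abundant of each class, those 2-fold different between genotypes in a region or called between genotypes, partner chains, and the 4 largest called changes of the maturation list, other genes having been chosen after their values were seen. Members, classes, and gene lists were chosen with earlier results of these data known. Tables and figures used Python 3.11.15, pandas 2.3.3, and matplotlib 3.10.9.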

Additional observations from a re-analysis of the deposited data

Results flagged for a closer look

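Col5a3 was singled out because its TKO over WT difference in the left ventricle departed from that in the other 3 regions (log2 1.30 ± 0.15, adjusted p = 0.0455 with edgeR's quasi-likelihood test and 0.00314 with DESeq2's Wald test). It had 886 counts in the TKO and 421 in the WT left ventricle, 456 and 457 in the remote zone, 543 and 638 in the border zone, and 1061 and 1485 in the infarct zone. The left ventricle side of this comparison is 1 library of each genotype. Without 1 library of the border or remote zones the log2 departure lay between 1.27 and 1.37 with an adjusted p from 0.0523 to 0.216, and without 1 infarct zone library it was 1.24.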

How the results depend on the processing

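No paired analysis was possible because the labels give no replicate numbers and tie no libraries to hearts, and genotype and region are already terms of each fit. With all 8 libraries, the collagen genes higher in the infarct zone than in the left ventricle numbered 28 to 33 under each alternative. The share of all genes called higher ran from 21.3% with no filter to 60.5% with total counts, against 28.2% in the main fit. DESeq2's Wald test called 2 genes between genotypes in place of 0, against 2.63% of all genes in either direction. Against the left ventricle it called 16 in the border and 3 in the remote zone, in place of 6 and 0. The shares of all genes called higher by it there were 3.66% and 0.977%. For the left ventricle departure it called 3 in place of 1, against 2.15% of all genes in place of 0.646%. Total counts gave 2 for this departure, against 2.12% of all genes. With each library left out in turn, calls ranged from 26 to 30 for the infarct zone against the left ventricle, 0 to 11 for the border zone, 0 to 1 for the remote zone, 12 to 29 for infarct against border zone, 20 to 31 for infarct against remote zone, 0 to 6 for the infarct zone departure, and 0 to 16 for the left ventricle departure. Without the WT infarct and WT border zone libraries, an alternative chosen after seeing the data, the border zone count was 0, that of infarct against border zone 0, and that of infarct against remote zone 19. The share of all genes called also changed between the fits with libraries left out, so these counts alone do not show how stable the collagen result is. With no filter, TKO over WT ratios covered 43 collagen genes among 16964 genes. Decreases of 2-fold or more in TKO numbered 5, 4, 13, and 2 among collagen genes in the left ventricle, remote, border, and infarct zone. Among all genes these decreases numbered 1419, 863, 1165, and 767. Increases of that size numbered 4, 2, 2, and 2 among collagen genes and 719, 741, 672, and 706 among all genes. With total counts and the filter, decreases of that size numbered 2, 4, 11, and 2 among the 35 collagen genes. Among all 12999 genes they numbered 466, 316, 504, and 497. With a denominator that lacks mitochondrial DNA-encoded genes, collagen shares were 0.181% and 0.214% in the WT and TKO left ventricle, 0.268% and 0.191% in the remote zone, 0.517% and 0.283% in the border zone, and 1.69% and 1.25% in the infarct zone. With TMM-scaled totals they were 0.130%, 0.157%, 0.180%, 0.132%, 0.336%, 0.194%, 0.867%, and 0.718% in the same order. With the longest transcript as length, the WT infarct zone level of Col3a1 became 446 and that of Col1a1 173 CPM per kilobase, from 253 and 156. The causes of these changes were not tested. No direction of a called collagen gene was reversed under any of these alternatives. Genes with 3 counts or fewer in a library, such as Col2a1 and Col24a1, have folds that depth limits.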
